A study of Mus musculus with 12 samples.

Results

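The genes described are 8 genes by which Langerhans cells and dendritic cells of the skin are recognised: Cd207, Epcam, Itgax, Flt3, Xcr1, Clec9a, Zbtb46 and Cd86. They were chosen by name, as genes of these cells, from the 18505 genes of the expression table, though with earlier results of these data known. All 8 passed the filter on low values. The samples were skin of BALB/c mice with the genotype label WT, taken on day 10, in 3 groups of 4: a control group, an IMQ + NS group and an IMQ + BZLF group. By the methods of the study the mice were male, aged 5 to 6 weeks, and shaved on the back. Control mice were coated with petroleum jelly, and IMQ + NS mice received imiquimod (IMQ) cream for 6 h and then normal saline (NS). IMQ + BZLF mice received the same cream followed by an external herbal preparation, the Banzhilian formula (BZLF). Treatment was given once daily for 10 days. In both IMQ groups the site was then covered with gauze and a polyurethane film, which the methods do not state for control mice. The covering thus goes together with the cream in comparisons with control. IMQ is a ligand of Toll-like receptor 7, and the cream is a common way to bring about psoriasis-like lesions in mice. The sources do not state which BZLF dose the sequenced samples received. All samples were whole tissue, lesions in the IMQ groups and normal skin in the control group, so that no cell type was isolated.

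Langerhans cells are the antigen-presenting cells of the epidermis. They arise from embryonic precursors, depend on interleukin 34 and transforming growth factor beta, and, like dendritic cells, carry antigen to the draining lymph node after maturation. Conventional dendritic cells (cDCs) of the dermis depend on FLT3 ligand and fall into a cDC1 branch, which presents antigen to cytotoxic T cells, and a cDC2 branch, which presents to helper T cells. Dendritic cells are a source of the interleukin 23 that drives interleukin 17 production in psoriasis-like skin.

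Expression was given as FPKM, the fragments of a transcript divided by its length and by the mapped fragments of the library, so levels may be compared between genes. FPKM added up to between 444660 and 506622 per sample and 16649 to 16941 genes were above 0; the sequencing depth itself cannot be read from these values, and the precision of a mean comes from its 4 samples. Control replicate 2 stood apart, with a summed FPKM of 2282 over 12 hair follicle genes against 238 to 263 in the other control samples, and with 3462 over 6 skeletal muscle genes against 7981 to 8739. Among the 8 genes it was the lowest control sample for 5 and the highest for 1. IMQ + BZLF replicate 1 was the lowest of its group for 6 of the 8. Svs5, a secretory gene of the seminal vesicle, stood at 13.1 FPKM in control replicate 2 and 12.04 FPKM in IMQ + BZLF replicate 2 and at 0 in the other 10 samples. Ctrb1, a gene of a pancreatic enzyme, followed the replicate number in part. It was at 75.0, 87.9 and 69.4 FPKM in replicate 3 and at 6.65, 0.112 and 7.46 FPKM in replicate 4, in the order control, IMQ + NS and IMQ + BZLF, and replicates 1 and 2 were at 59.1 to 64.1 FPKM in control and IMQ + BZLF but at 14.6 and 22.8 FPKM in IMQ + NS samples. The sources do not say what samples with the same number share. The part of these transcripts in the results was not tested, and calls that are lost without one of the samples named are given with each gene. Keratinocyte genes were high throughout, with a summed FPKM of 1926 to 7743 over 8 genes.

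In every group Epcam had the highest level of the 8 genes and Cd207 the next, followed by Cd86. Control means ran from Epcam at 34.4 FPKM through Cd207 at 15.2, Cd86 at 5.77, Itgax at 1.83 and Zbtb46 at 1.15 to Xcr1 at 0.772, Flt3 at 0.652 and Clec9a at 0.520 FPKM. The last 3 could not be told apart in order, since the ranges of Xcr1 and Flt3 and those of Flt3 and Clec9a overlapped between samples, whereas all higher neighbours were separate. Itgax overlapped with Cd86 and Flt3 with Zbtb46 in the IMQ + NS group. From Itgax down, all neighbours overlapped in the IMQ + BZLF group.

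**Figure D1:**
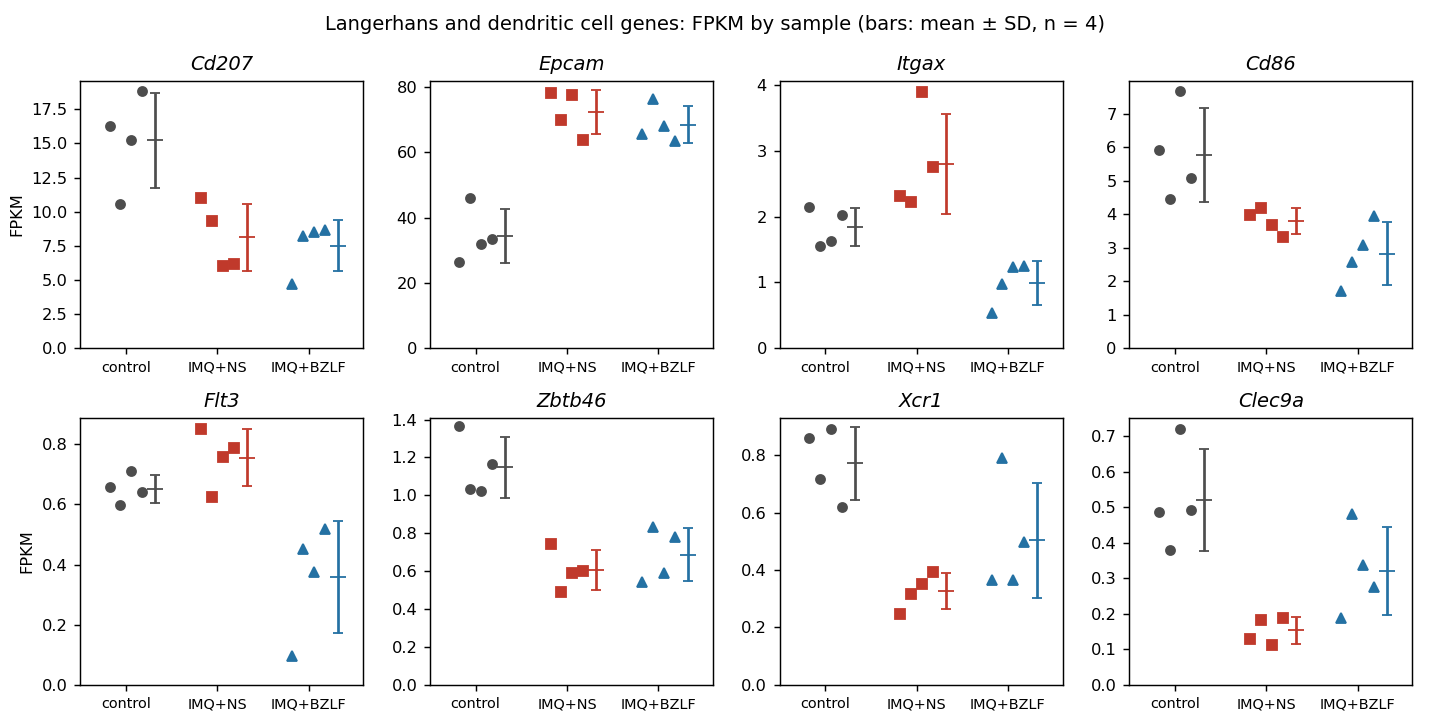
FPKM (vertical axes, from 0, with a scale of its own for each gene) of the 8 genes by group, with 1 point per sample and bars for the mean ± SD of 4 samples. Epcam is higher and Cd207, Zbtb46 and Cd86 are lower in both IMQ groups than in the control group, while Itgax is highest in the IMQ + NS group and lowest in the IMQ + BZLF group.

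The 3 comparisons are those between each pair of groups, and each group enters 2 of them, so their results are not independent. The labels do not say that the 4 samples of a group came from separate animals, and p-values measure the spread between these samples. Adjusted p-values are from limma with Benjamini-Hochberg adjustment over 15288 genes, on log2(FPKM + 0.1), which understates the fold change of genes near 0.1 FPKM. A gene passed at an adjusted p below 0.05 and was a differentially expressed gene (DEG) when its log2 fold change was also over 1 in size.

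IMQ + NS skin differed from control skin in most of the 8 genes. Cd207, Xcr1, Clec9a, Zbtb46 and Cd86 fell and Epcam and Itgax rose, so that 7 of 8 passed, beside 56.1% of all genes tested. By direction, 5 of 8 fell against 27.1% of all genes and 2 of 8 rose against 29%. DEGs were Epcam, higher, and Xcr1 and Clec9a, lower, 3 of 8 beside 22.4% of all genes (11.4% higher and 11% lower). For 6 of 8 the samples of the groups did not overlap, 2 higher and 4 lower, beside 49.4% of all genes (23.7% and 25.7%). The median log2 fold change of the 8 was -0.70, against 0.05 for all genes.

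The next comparison was IMQ + BZLF against IMQ + NS skin, where a gene that did not pass is not thereby shown to be unchanged. Itgax alone passed, falling as a DEG, which is 1 of 8 beside 6.45% of all genes that passed (5.17% lower and 1.28% higher) and 2.52% that were DEGs (2.2% lower and 0.321% higher). Flt3 was also lower in every IMQ + BZLF sample than in every IMQ + NS sample but did not pass. The groups thus did not overlap for 2 of 8, both lower, beside 15.2% of all genes (10.9% lower and 4.24% higher). The median log2 fold change of the 8 was -0.09, against -0.02 for all genes.

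In IMQ + BZLF skin compared with control skin, Cd207, Itgax, Zbtb46 and Cd86 fell and Epcam rose. These 5 of 8 stood beside 53% of all genes, and Cd207, Cd86 and Epcam were DEGs, 3 of 8 beside 19.7% (10.1% lower and 9.65% higher). By direction, 4 of 8 fell against 29.2% of all genes and 1 of 8 rose against 23.8%. The groups did not overlap for 6 of 8, 5 lower and 1 higher, beside 47.5% of all genes (28.1% and 19.4%). The median log2 fold change was -0.75, against -0.02 for all genes. The plot of fold changes sets the 3 comparisons side by side.

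**Figure D2:**
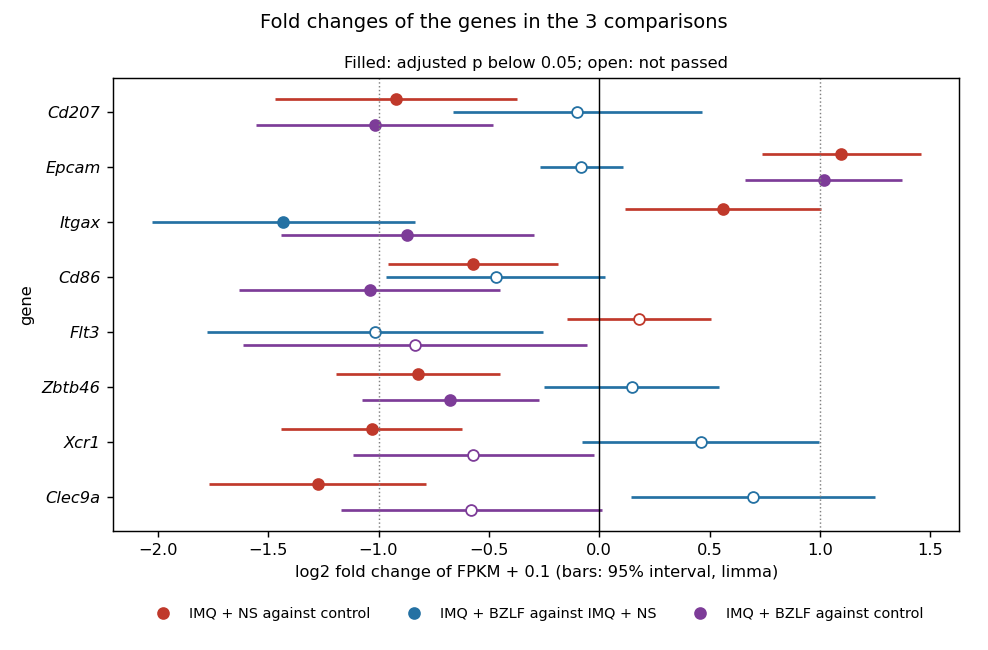
Log2 fold change of FPKM + 0.1 (horizontal axis) of the 8 genes in the 3 comparisons, with 95% intervals from limma. Filled points passed at an adjusted p below 0.05, open points did not, and dotted lines mark a log2 fold change of 1 in size. Itgax is the gene with a filled point for IMQ + BZLF against IMQ + NS.

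Cd207 (chr6:83671215-83677857, minus strand) encodes langerin, the C-type lectin that forms the Birbeck granules of Langerhans cells and is also carried by a part of the dermal cDC1. It stood at 16.3, 10.6, 15.2 and 18.9 FPKM in control samples, at 10.98, 9.34, 5.98 and 6.13 FPKM in IMQ + NS samples and at 4.71, 8.21, 8.53 and 8.62 FPKM in IMQ + BZLF samples. All IMQ samples lay below the control samples other than replicate 2, which lay between the first and second IMQ + NS samples. Cd207 fell by 0.92 on the log2 scale in the IMQ + NS group (SE 0.24, limma adjusted p = 0.0112), from 15.2 ± 3.47 to 8.11 ± 2.46 FPKM (SD, n = 4). Since the groups overlapped, the exact two-sided permutation test of 4 against 4 samples, which cannot go below p = 0.0286, gave p = 0.0571. Without control replicate 2 the fall was 1.08 on the log2 scale (limma adjusted p = 0.00267). Between the IMQ groups Cd207 differed by -0.10 (95% interval -0.66 to 0.46, adjusted p = 0.85), with 7.52 ± 1.88 FPKM (SD, n = 4) after BZLF. The sign of this difference turned when replicate 1 of the IMQ + NS group (0.06) or of the IMQ + BZLF group (0.11) was left out. Against control it fell by 1.02 (SE 0.24, limma adjusted p = 0.00686). In these bulk samples, fewer cells of a type and less RNA per cell cannot be told apart.

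Epcam (chr17:87635979-87651129, plus strand) encodes an adhesion molecule that Langerhans cells share with epithelia, hair follicles among them. Its levels were 26.4, 46.0, 31.9 and 33.3 FPKM in control samples, 78.3, 69.99, 77.6 and 64.0 FPKM in IMQ + NS samples and 65.8, 76.4, 68.2 and 63.5 FPKM in IMQ + BZLF samples. No control sample reached an IMQ sample, and the 2 IMQ groups covered the same range. Epcam rose by 1.10 on the log2 scale in the IMQ + NS group (SE 0.16, limma adjusted p = 0.00054) and by 1.02 in the IMQ + BZLF group (SE 0.16, adjusted p = 0.000961), both against control. The difference between the IMQ groups was -0.08 (95% interval -0.27 to 0.11, adjusted p = 0.612). Cldn7, the claudin that binds EPCAM, rose by 1.12 in the IMQ + NS group (SE 0.41, limma adjusted p = 0.045), a call that was lost in 7 of 8 fits with 1 sample left out.

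Cd207 and Epcam therefore moved in opposite directions, although both mark Langerhans cells. The ratio of Epcam to Cd207 FPKM was 1.62, 4.36, 2.10 and 1.77 in control samples, 7.13, 7.497, 13.0 and 10.4 in IMQ + NS samples and 13.97, 9.31, 7.99 and 7.36 in IMQ + BZLF samples. On the log2 scale, Cd207 minus Epcam fell by 2.02 in the IMQ + NS group and by 2.03 in the IMQ + BZLF group against control. Each has an exact two-sided permutation p = 0.0286, the smallest that 4 against 4 samples allow, and p = 0.0367 after Benjamini-Hochberg adjustment over 9 values. Between the IMQ groups the difference was -0.02 (exact permutation p = 0.943). Genes of hair follicle epithelium moved with Epcam. Of 12 such genes 10 rose and 0 fell in IMQ + NS against control skin, beside the 29% and 27.1% of all genes. Their summed level was 238 to 2282 FPKM in control, 7752 to 9758 FPKM in IMQ + NS and 8774 to 12136 FPKM in IMQ + BZLF samples, and control replicate 2, the highest of the controls in hair follicle genes, was also the highest in Epcam and the lowest in Cd207. Of 8 keratinocyte genes 6 rose in IMQ + NS skin, from a summed 1926 to 3049 FPKM to 4915 to 7743 FPKM. The sum was 2265 to 3808 FPKM in IMQ + BZLF samples, where 6 of the 8 genes rose and 0 fell against control. Against IMQ + NS skin 4 of the 8 fell and 0 rose, beside 5.17% and 1.28% of all genes. Melanocyte genes rose for 4 of 5 and adipocyte genes fell for 4 of 5 in each IMQ group against control. In IMQ + BZLF against control skin 23.8% of all genes rose and 29.2% fell. The part of hair follicles and keratinocytes in the Epcam result was not tested.

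**Figure D3:**
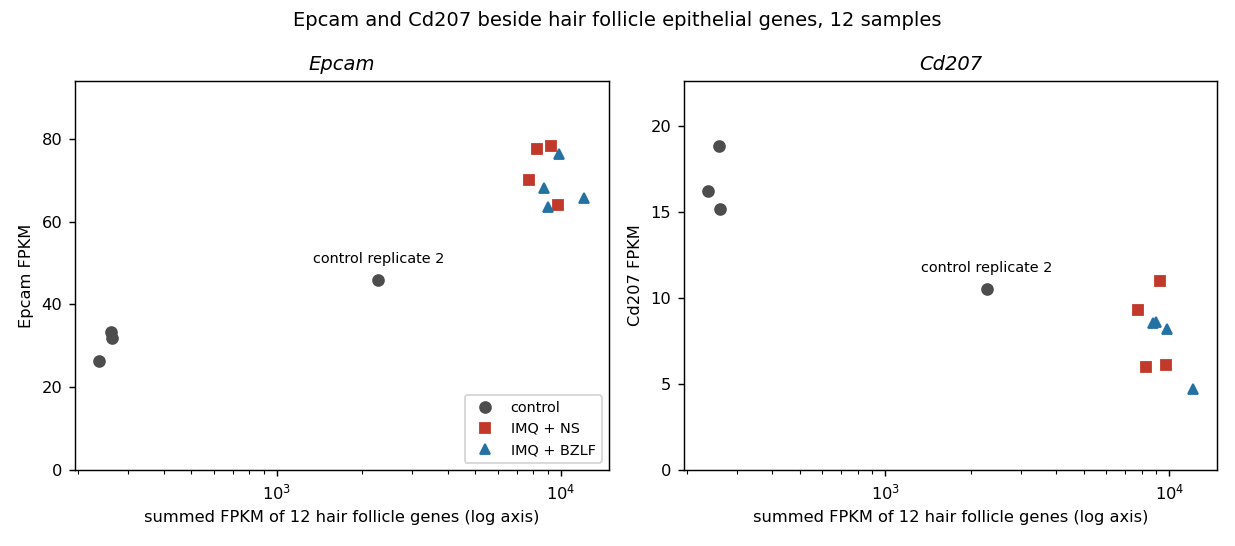
FPKM of Epcam (left) and Cd207 (right) against the summed FPKM of 12 hair follicle genes on a log axis, with 1 point for each of the 12 samples. Control replicate 2, at 2282 FPKM of hair follicle genes, sits between the other control samples and the IMQ samples on the horizontal axis and in Epcam, while in Cd207 it is below the other control samples and the highest IMQ + NS sample.

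Promoter windows of Cd207, Epcam, Itgax and Zbtb46 are shown because these genes moved in different directions, Cd207 and Zbtb46 down and Epcam and Itgax up in IMQ + NS skin. Each is the stretch of 250 bases before the start listed for the gene in RefSeq (build GRCm38.p6). It is written 5′ to 3′ on the strand of the gene, with motif matches in capitals. For Zbtb46 the listed start lies inside the annotated gene, so its window is not upstream of the whole gene. The windows are chr6:83677858-83678107 for Cd207, chr17:87635729-87635978 for Epcam, chr7:128129300-128129549 for Itgax and chr2:181424389-181424638 for Zbtb46.
Cd207: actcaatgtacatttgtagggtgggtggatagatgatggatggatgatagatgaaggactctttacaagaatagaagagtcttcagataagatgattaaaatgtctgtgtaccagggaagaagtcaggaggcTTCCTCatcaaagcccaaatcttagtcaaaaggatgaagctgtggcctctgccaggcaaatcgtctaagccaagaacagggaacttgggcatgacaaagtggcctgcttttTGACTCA
Epcam: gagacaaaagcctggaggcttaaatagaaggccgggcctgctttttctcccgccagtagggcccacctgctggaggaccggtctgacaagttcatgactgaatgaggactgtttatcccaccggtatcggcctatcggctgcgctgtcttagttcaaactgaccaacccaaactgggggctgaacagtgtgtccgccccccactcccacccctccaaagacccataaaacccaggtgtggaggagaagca
Itgax: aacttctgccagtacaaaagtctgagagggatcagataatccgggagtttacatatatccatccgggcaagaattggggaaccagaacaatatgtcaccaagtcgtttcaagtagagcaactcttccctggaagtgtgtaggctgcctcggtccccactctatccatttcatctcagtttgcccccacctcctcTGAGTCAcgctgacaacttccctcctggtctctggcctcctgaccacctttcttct
Zbtb46: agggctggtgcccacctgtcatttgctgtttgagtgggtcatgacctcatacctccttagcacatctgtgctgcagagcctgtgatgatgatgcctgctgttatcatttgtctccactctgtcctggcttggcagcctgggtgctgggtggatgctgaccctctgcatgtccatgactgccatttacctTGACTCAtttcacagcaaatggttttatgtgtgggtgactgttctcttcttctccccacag
TGANTCA, the motif of the AP-1 factors, was found 7 bases before the listed start in Cd207 and 56 bases before it in Itgax. In Zbtb46 it was found 61 bases before the listed start, inside the annotated gene. The motif reads the same on both strands apart from its centre base. It occurred in 3 of the 7 windows available for the 8 genes (no window was used for Cd86) and in 6.75% of all 32851 windows of the same length. GAGGAA, a core bound by PU.1, was found in Cd207, on the minus strand of the window as TTCCTC, and in 23.3% of all windows. TGTGGT, the RUNX motif, and the ETS-IRF composite motif were found in 0 of the 7 on either strand, and in 14.05% and 2.3% of all windows. In the GENCODE annotation, the Epcam and Cd207 windows overlap no gene, the last 3 bases of the Itgax window lie in its first exon, and the Zbtb46 window lies inside the gene of a longer Zbtb46 transcript, outside its exons. A match is a description of the letters and was not tested as a binding site.

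Xcr1 and Clec9a are the most specific markers of cDC1. Xcr1 (chr9:123852315-123862029, minus strand) encodes the receptor for the chemokine XCL1, through which cDC1 meet cytotoxic T cells and natural killer cells. It stood at 0.860, 0.719, 0.890 and 0.619 FPKM in control samples, at 0.246, 0.317, 0.352 and 0.392 FPKM in IMQ + NS samples and at 0.364, 0.789, 0.364 and 0.499 FPKM in IMQ + BZLF samples. Every IMQ + NS sample was below every control sample, while IMQ + BZLF samples overlapped with both groups. Xcr1 fell by 1.03 on the log2 scale in IMQ + NS skin (SE 0.18, limma adjusted p = 0.00147), from 0.772 ± 0.126 to 0.327 ± 0.0620 FPKM (SD, n = 4). After BZLF the difference from IMQ + NS was 0.46 (95% interval -0.076 to 0.997, adjusted p = 0.288) and that from control -0.57 (95% interval -1.12 to -0.03, adjusted p = 0.073). Without IMQ + BZLF replicate 2 the difference from control was -0.77 and passed (limma adjusted p = 0.0165).

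Clec9a (chr6:129408862-129424763, plus strand) encodes a lectin by which cDC1 bind the actin of dead cells. Its levels were 0.486, 0.380, 0.722 and 0.493 FPKM in control samples, 0.128, 0.183, 0.113 and 0.189 FPKM in IMQ + NS samples and 0.188, 0.482, 0.338 and 0.274 FPKM in IMQ + BZLF samples. Control and IMQ + NS samples did not overlap, and IMQ + BZLF samples lay between, in part within both ranges. Clec9a fell by 1.28 in IMQ + NS skin (SE 0.22, limma adjusted p = 0.00122), the largest log2 fold change of the 8 genes in this comparison. The mean was 0.520 ± 0.144 FPKM in control, 0.153 ± 0.0382 FPKM in IMQ + NS and 0.321 ± 0.124 FPKM in IMQ + BZLF samples (SD, n = 4). The difference of IMQ + BZLF from IMQ + NS was 0.70 (95% interval 0.14 to 1.25, adjusted p = 0.133) and that from control -0.58 (95% interval -1.17 to 0.01, adjusted p = 0.0897), so that neither passed. The difference from control did pass in 2 of 8 fits with 1 sample left out, those without control replicate 2 and without IMQ + BZLF replicate 2. At these levels the added 0.1 matters, and the ratio of the IMQ + NS to the control mean was 0.295, beside a fold change of 0.413 with it.

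Xcl1, the ligand of XCR1 made by T cells and natural killer cells, fell by 2.01 in IMQ + NS skin (SE 0.21, limma adjusted p = 0.00011), from 2.87 ± 0.755 to 0.632 ± 0.160 FPKM (SD, n = 4). It was at 0.967 ± 0.595 FPKM after BZLF, a difference of 0.37 from IMQ + NS (adjusted p = 0.632). The remaining cDC1 genes did not move as one: of 9 tested, 2 rose and 1 fell in IMQ + NS against control skin, beside 29% and 27.1% of all genes, and their median log2 fold change was -0.14. Naaa, a lysosomal amidase, fell by 0.59 (limma adjusted p = 0.00345), while Itgae, the CD103 integrin chain, and Ly75, the DEC205 receptor, rose by 0.58 (adjusted p = 0.0144) and 0.69 (adjusted p = 0.00362). Both of these are also found on cells other than dendritic cells. Batf3, the transcription factor on which cDC1 depend, was at 5.13 ± 2.21 FPKM in control and 4.84 ± 1.75 FPKM in IMQ + NS samples (SD, n = 4) and did not pass (log2 fold change -0.04, adjusted p = 0.931). Irf8, which acts with it, was at 9.98 ± 1.42 and 8.36 ± 0.474 FPKM (SD, n = 4; log2 fold change -0.24, adjusted p = 0.0913). Between the IMQ groups 3 of the 9 fell and 0 rose, beside 5.17% and 1.28% of all genes: Itgae fell by 0.79 (limma adjusted p = 0.0459), Ly75 by 0.68 (adjusted p = 0.0323) and Irf8 by 0.55 (adjusted p = 0.0467). With 1 sample left out, these calls were lost in 7, 6 and 7 of 8 fits.

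Zbtb46 (chr2:181387762-181459426, minus strand) encodes a transcription factor that separates cDCs from other myeloid cells and is also present in endothelium. It stood at 1.37, 1.04, 1.02 and 1.17 FPKM in control samples, at 0.745, 0.490, 0.591 and 0.601 FPKM in IMQ + NS samples and at 0.543, 0.831, 0.593 and 0.779 FPKM in IMQ + BZLF samples. The control samples were all above the samples of both IMQ groups, which overlapped with each other. Zbtb46 fell by 0.82 on the log2 scale in IMQ + NS skin (SE 0.16, limma adjusted p = 0.00286) and by 0.67 in IMQ + BZLF skin (SE 0.18, adjusted p = 0.0117), both against control. The difference between the IMQ groups was 0.15 (95% interval -0.25 to 0.54, adjusted p = 0.662). Endothelial genes fell as well: of 9 genes 7 passed as lower in IMQ + NS and 9 in IMQ + BZLF skin against control. These counts stand beside 27.1% and 29.2% of all genes. Between the IMQ groups 0 of the endothelial genes passed, beside 6.45% of all genes. Their summed level was 140 to 202 FPKM in control, 102 to 121 FPKM in IMQ + NS and 77.4 to 121 FPKM in IMQ + BZLF samples. The part of endothelium in the Zbtb46 result was not tested.

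Flt3 (chr5:147330741-147400489, minus strand) encodes the receptor tyrosine kinase that cDCs keep from their bone marrow progenitors. Its levels were 0.659, 0.598, 0.710 and 0.641 FPKM in control samples, 0.851, 0.625, 0.759 and 0.789 FPKM in IMQ + NS samples and 0.0951, 0.451, 0.374 and 0.517 FPKM in IMQ + BZLF samples. All 4 IMQ + BZLF samples lay below all 8 others, replicate 1 the furthest, whereas control and IMQ + NS samples overlapped. Flt3 differed by 0.18 between IMQ + NS and control (95% interval -0.15 to 0.51, limma adjusted p = 0.306), and was the gene of the 8 that did not pass in that comparison. IMQ + BZLF differed by -1.02 from IMQ + NS (SE 0.34, adjusted p = 0.115) and by -0.83 from control (SE 0.34, adjusted p = 0.0679), and neither passed. The exact permutation p was 0.0286 for each, the smallest possible, with 0.129 and 0.0367 after adjustment over 9 values. Genes lower in every IMQ + BZLF sample made up 10.9% of all genes against IMQ + NS and 28.1% against control. Without IMQ + BZLF replicate 1 the difference from IMQ + NS was -0.65 (limma adjusted p = 0.0535).

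Flt3l, the ligand of FLT3, moved otherwise than its receptor: it fell by 1.38 in IMQ + NS skin (SE 0.13, limma adjusted p = 6.09e-05), from 7.08 ± 1.16 to 2.63 ± 0.114 FPKM (SD, n = 4), and by 1.03 in IMQ + BZLF skin (adjusted p = 0.0025), both against control. Other factors for these cells were also lower. Il34, the ligand of CSF1R that maintains Langerhans cells, fell by 1.52 in IMQ + NS skin (SE 0.23, adjusted p = 0.000672), from 11.5 ± 3.56 to 3.82 ± 0.491 FPKM (SD, n = 4). Csf1, the other ligand, fell by 1.29 (SE 0.13, adjusted p = 9.09e-05). Csf1r itself fell by 0.81 (adjusted p = 0.00346) and Tgfbr2, a receptor chain for transforming growth factor beta, by 0.96 (adjusted p = 0.000582). Among the 10 tested factors and receptors 6 fell and 1 rose in IMQ + NS against control skin, beside 27.1% and 29% of all genes, the last being Tgfb1 at 0.32 (adjusted p = 0.0382), which lost its call in 6 of 8 fits with 1 sample left out. Csf2 was too low to test, with means of 0.0339 to 0.0543 FPKM. After BZLF 3 of the 10 fell relative to IMQ + NS and 0 rose, beside 5.17% and 1.28% of all genes. These were Csf2ra, Csf2rb and Tgfb1, whose calls were lost in 7, 6 and 6 of 8 fits with 1 sample left out, and Flt3l, Il34, Csf1 and Xcl1 did not pass.

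Itgax (chr7:128129547-128150657, plus strand) encodes CD11c, an integrin chain of dendritic cells that macrophages, monocytes and neutrophils also carry. It stood at 2.14, 1.55, 1.62 and 2.02 FPKM in control samples, at 2.32, 2.23, 3.89 and 2.75 FPKM in IMQ + NS samples and at 0.535, 0.968, 1.23 and 1.25 FPKM in IMQ + BZLF samples. The 3 groups did not overlap, with IMQ + NS the highest and IMQ + BZLF the lowest. Itgax fell by 1.43 on the log2 scale in IMQ + BZLF against IMQ + NS skin (SE 0.26, limma adjusted p = 0.0153), from 2.80 ± 0.765 to 0.994 ± 0.331 FPKM (SD, n = 4). The fold was 2.70-fold lower on the FPKM + 0.1 scale. Without IMQ + BZLF replicate 2 the size was about the same, -1.44, but the adjusted p was 0.0512, so that 0 of the 8 genes then passed; in the other 7 fits with 1 sample left out the call was kept, at -1.19 without IMQ + BZLF replicate 1. Itgax was also below control, having fallen by 0.87 (SE 0.25, adjusted p = 0.0185), or by 0.80 with an adjusted p of 0.0539 without control replicate 1.

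The rise of Itgax in IMQ + NS over control was smaller, 0.56 on the log2 scale (SE 0.20, limma adjusted p = 0.0368), from 1.83 ± 0.289 FPKM (SD, n = 4). It did not pass in 6 of 11 other settings, where the adjusted p reached 0.113, nor in 5 of the 8 fits with 1 sample left out, among them those without control replicate 2 (0.49, adjusted p = 0.0599) and without IMQ + NS replicate 3 (0.40, adjusted p = 0.0789). Among genes of other CD11c-bearing cells, neutrophil genes moved alongside, while more macrophage genes fell than rose in IMQ + NS against control skin. Of 8 neutrophil genes 7 rose in IMQ + NS against control skin, beside 29% of all genes. In IMQ + BZLF against IMQ + NS skin 7 fell, beside 5.17% of all genes. Their summed level was 38.5 to 58.6, 3139 to 9908 and 69.2 to 91.6 FPKM in control, IMQ + NS and IMQ + BZLF samples. Most of that sum was S100a8 and S100a9, which keratinocytes of lesions also make, and the other 6 genes summed to 11.3 to 16.9, 33.8 to 76.7 and 9.35 to 15.1 FPKM. Itgam, the CD11b chain, rose by 1.12 (limma adjusted p = 0.00112) and then fell by 1.76 (adjusted p = 0.00151). Adgre1, the F4/80 gene of macrophages, rose by 0.70 (adjusted p = 0.00165) and fell by 1.36 (adjusted p = 0.00157). Of 12 macrophage genes 4 rose and 7 fell in the IMQ + NS comparison, beside 29% and 27.1% of all genes, a share of rises near that of all genes. The 4 were Itgam, Adgre1, Cx3cr1 and Maf. The 7 were Cd163, which fell by 1.40 (limma adjusted p = 0.00291), Csf1r, Mrc1, Cd68, C1qa, C1qb and C1qc. In the BZLF comparison 4 of the 12 fell, beside 5.17% of all genes. The macrophage list summed to 944 to 1338, 710 to 977 and 481 to 688 FPKM in control, IMQ + NS and IMQ + BZLF samples. No gene of the neutrophil and macrophage lists was at 0 in all samples of a group. The part of these cells in the Itgax result was not tested.

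Cd86 (chr16:36603869-36666081, minus strand) encodes a ligand of the T cell receptors CD28 and CTLA4 that dendritic cells, macrophages and B cells raise upon activation. Its levels were 5.90, 4.45, 7.67 and 5.06 FPKM in control samples, 3.98, 4.19, 3.66 and 3.31 FPKM in IMQ + NS samples and 1.69, 2.56, 3.09 and 3.93 FPKM in IMQ + BZLF samples. Control samples were all above those of both IMQ groups, and the IMQ groups overlapped. Cd86 fell by 0.57 in IMQ + NS skin (SE 0.17, limma adjusted p = 0.0192), from 5.77 ± 1.40 to 3.79 ± 0.384 FPKM (SD, n = 4), and without IMQ + NS replicate 4 by 0.51 with an adjusted p of 0.0559. In IMQ + BZLF skin it fell by 1.04 against control (SE 0.26, adjusted p = 0.00978), to 2.82 ± 0.940 FPKM (SD, n = 4). The difference between the IMQ groups was -0.47 (95% interval -0.96 to 0.03, adjusted p = 0.241). Cd80, the related ligand, was at 0.609 ± 0.135, 0.636 ± 0.162 and 0.391 ± 0.0650 FPKM in the 3 groups (SD, n = 4) and passed in none of the comparisons. Cd28 passed in none of them either, at 0.487 ± 0.256 FPKM in control and 0.191 ± 0.105 FPKM in IMQ + NS samples (SD, n = 4; adjusted p = 0.0738). Ctla4, the inhibitory receptor, fell by 1.54 in IMQ + BZLF against IMQ + NS skin (SE 0.28, limma adjusted p = 0.0145), from 0.623 ± 0.158 to 0.155 ± 0.0898 FPKM (SD, n = 4). B cell genes, a further possible source of Cd86, rose in IMQ + NS against control skin for 3 of 4 tested, beside 29% of all genes. The B cell list summed to 1.68 to 3.05 FPKM in control, 5.81 to 7.83 FPKM in IMQ + NS and 1.76 to 3.54 FPKM in IMQ + BZLF samples. In that list 3 further genes were too low to test. The part of macrophages and B cells in the Cd86 result was not tested.

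Genes of the cDC2 branch held the largest log2 fold changes of the dendritic cell lists in IMQ + NS against control skin. Mgl2, a lectin of dermal cDC2 and of some macrophages, fell by 4.52 on the log2 scale in IMQ + NS skin (SE 0.17, limma adjusted p = 3.26e-07). It was at 50.4, 41.7, 59.8 and 50.8 FPKM in control samples, at 2.36, 2.45, 1.49 and 2.24 FPKM in IMQ + NS samples and at 2.50, 3.87, 3.21 and 4.26 FPKM in IMQ + BZLF samples, so control samples were far above all others and IMQ + BZLF samples lay just above IMQ + NS samples. The last difference, 0.67, did not pass (adjusted p = 0.0827). Cd209a, a lectin of cDC2, fell by 3.45 (SE 0.28, adjusted p = 2.62e-05), from 40.2 ± 10.97 to 3.63 ± 1.20 FPKM (SD, n = 4). Clec10a, the relative of Mgl2, fell by 1.97 (SE 0.22, adjusted p = 0.000135) and rose by 0.84 after BZLF (SE 0.18, adjusted p = 0.0282), from 16.3 ± 3.47 to 29.3 ± 5.55 FPKM (SD, n = 4), a rise that did not pass in 4 of 8 fits with 1 sample left out. Irf4, the transcription factor of cDC2, fell by 1.57 (SE 0.25, adjusted p = 0.000814) and did not pass after BZLF (0.01, adjusted p = 0.98). Clec4a2, an inhibitory lectin of myeloid cells, went the other way, rising by 0.78 (adjusted p = 0.000226) and falling by 1.27 after BZLF (adjusted p = 0.00485). In all, 4 of 10 cDC2 genes fell and 1 rose in IMQ + NS against control skin, beside 27.1% and 29% of all genes, and 2 fell and 1 rose in IMQ + BZLF against IMQ + NS skin, beside 5.17% and 1.28%.

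**Figure D4:**
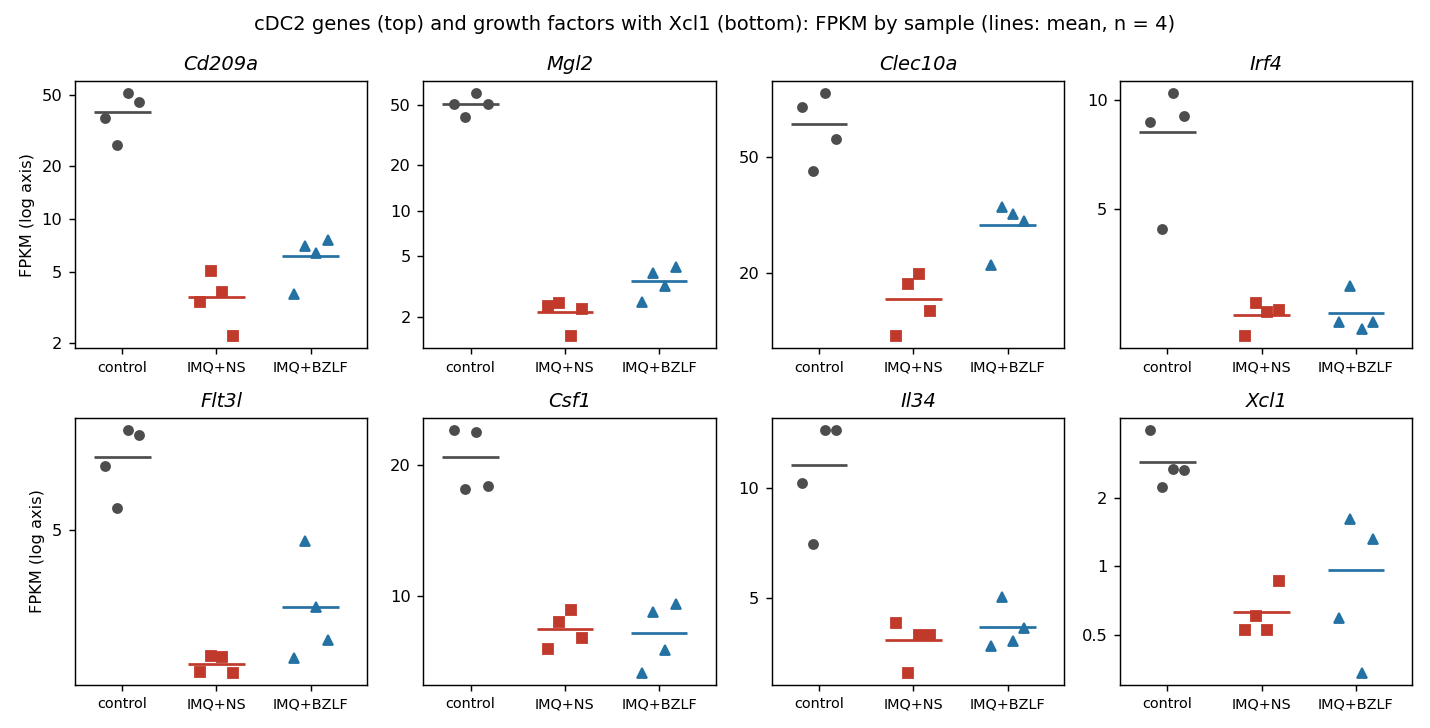
FPKM on log axes of 4 cDC2 genes (top) and of Flt3l, Csf1, Il34 and Xcl1 (bottom) by group, with 1 point per sample and lines for the mean of 4. Control samples lie above all samples of both IMQ groups for each of the 8 genes, by the most for Mgl2 (50.7 against 2.14 FPKM in the means of control and IMQ + NS).

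Maturation and migration genes went in both directions in the IMQ + NS group, and 2 of them, Ccr7 and Pdcd1lg2, fell after BZLF. Of 13 tested, 6 fell and 2 rose in IMQ + NS against control skin, beside 27.1% and 29% of all genes. In IMQ + BZLF skin 2 fell and 0 rose against IMQ + NS, beside 5.17% and 1.28% of all genes, and 9 fell and 0 rose against control, beside 29.2% and 23.8%. Cd83, a surface marker of mature dendritic cells, fell by 1.76 in IMQ + NS skin (SE 0.32, limma adjusted p = 0.00189), from 7.87 ± 3.85 to 2.05 ± 0.267 FPKM (SD, n = 4), and Ccl17, a chemokine of Langerhans cells and cDC2, by 1.62 (adjusted p = 0.00104). Socs2, an inhibitor of cytokine signalling, fell by 1.34 (adjusted p = 0.000105). Ccr7, the receptor by which these cells reach the lymph node, was at 0.718 ± 0.292 FPKM in control and 0.835 ± 0.125 FPKM in IMQ + NS samples (SD, n = 4; adjusted p = 0.438). It fell by 1.49 after BZLF (SE 0.25, limma adjusted p = 0.0116), to 0.245 ± 0.119 FPKM (SD, n = 4). Pdcd1lg2, the PD-L2 ligand, rose by 0.76 in IMQ + NS skin (adjusted p = 0.0104) and fell by 1.65 after BZLF (adjusted p = 0.00922), to a mean of 0.0716 FPKM, a level below the added 0.1.

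Among 14 transcription factors of these cells, 5 fell and 1 rose in IMQ + NS against control skin, beside 27.1% and 29% of all genes, and 2 fell in IMQ + BZLF against IMQ + NS skin, beside 5.17%. Spi1, which encodes PU.1, the factor of the myeloid lineage, did not pass in IMQ + NS skin (-0.06, limma adjusted p = 0.752) and fell by 1.09 after BZLF (SE 0.21, adjusted p = 0.018), from 29.9 ± 6.70 to 14.1 ± 3.26 FPKM (SD, n = 4), a fall that did not pass in 1 of 8 fits with 1 sample left out. Id2, which Langerhans cells and cDC1 need, fell by 0.21 in IMQ + NS skin (adjusted p = 0.0233), a call lost in 4 of 8 fits with 1 sample left out and with the replicate number as a block (adjusted p = 0.0796). Runx3, a factor of Langerhans cells and T cells, was at 2.01 ± 1.03, 2.83 ± 0.310 and 1.90 ± 0.452 FPKM in the 3 groups (SD, n = 4) and passed in none of the comparisons. Nfil3, which acts upstream of cDC1 development and is widely expressed, rose by 1.01 (adjusted p = 0.000962).

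Plasmacytoid dendritic cell genes fell for 5 of 10 and rose for 2 in IMQ + NS against control skin, beside 27.1% and 29% of all genes. Siglech, a lectin specific to these cells, fell by 2.10 (SE 0.40, limma adjusted p = 0.00227), from 1.84 ± 0.854 to 0.307 ± 0.0660 FPKM (SD, n = 4). Bst2, an interferon-induced antiviral gene, fell by 1.48 (adjusted p = 9.88e-05). Cox6a2, which is also a gene of skeletal muscle, fell by 2.71 (adjusted p = 0.000141). Of 6 other skeletal muscle genes 6 fell, beside 27.1% of all genes, with summed levels of 3462 to 8739 FPKM in control and 624 to 1485 FPKM in IMQ + NS samples. The part of skeletal muscle in the Cox6a2 result was not tested. Pacsin1, which is also a gene of neurons, rose by 1.09 (adjusted p = 0.0173), a call lost in 1 of 8 fits with 1 sample left out. Tlr7, the receptor of IMQ, was at 3.43 ± 0.509, 2.74 ± 0.653 and 2.21 ± 0.762 FPKM in the 3 groups (SD, n = 4) and passed in none of the comparisons. Tlr9, a receptor for DNA, fell by 1.13 after BZLF (SE 0.17, adjusted p = 0.00718). Of 10 genes of monocytes and inflammatory dendritic cells, 3 fell and 1 rose in the IMQ + NS comparison, a share of falls near the 27.1% of all genes, and 3 fell in the BZLF comparison, beside 5.17% of all genes. Plac8, a gene of monocytes and plasmacytoid cells, fell by 1.03 (adjusted p = 0.0449) in the IMQ + NS comparison, a call lost in 6 of 8 fits with 1 sample left out. The 1 that rose was Clec4e, the receptor Mincle, by 2.96 (SE 0.48, limma adjusted p = 0.001), and it fell by 3.03 after BZLF (adjusted p = 0.0078). Fcer1g, the signalling chain of Fc receptors, fell by 1.34 after BZLF (SE 0.18, adjusted p = 0.00469).

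In IMQ + BZLF against control skin the lists of dendritic cell genes were lower for more of their members than they were higher. Of the factors and receptors 8 of 10 fell and 0 rose, and of the transcription factors 7 of 14 fell and 1 rose. Of the cDC1 genes 3 of 9 fell and 0 rose, a share of falls near the 29.2% of all genes. Of the cDC2 genes 6 of 10 fell and 0 rose, of the plasmacytoid genes 6 of 10 fell and 1 rose, and of the monocyte genes 7 of 10 fell and 0 rose. These counts stand beside 29.2% of all genes that fell and 23.8% that rose. They are not independent, since some transcription factors are counted again in another list, here and above. Irf8 and Batf3 are also cDC1 genes, Irf4 and Klf4 cDC2 genes, Tcf4 and Spib plasmacytoid genes and Relb a maturation gene. Csf1r is in both the factor and the macrophage list. Mgl2 fell by 3.85 (SE 0.18, limma adjusted p = 1.08e-06) and Cd209a by 2.68 (SE 0.26, adjusted p = 0.00013) in this comparison. Cd83 fell by 2.02 (adjusted p = 0.00174) and Ccl22, a chemokine of mature dendritic cells, by 1.51 (adjusted p = 0.0237), the latter with its call lost in 4 of 8 fits with 1 sample left out. Cd40, the receptor by which T cells activate dendritic cells, fell by 1.10 (adjusted p = 0.00512), and Cd274, the PD-L1 ligand, by 1.03 (adjusted p = 0.00374). Cd14 and Lyz2, a receptor for bacterial lipid and a lysozyme of myeloid cells, fell by 1.27 (adjusted p = 0.00368) and 1.10 (adjusted p = 0.00147). Genes of T and natural killer cells, which include possible sources of Xcl1, fell for 4 of 9 in this comparison. In IMQ + NS against control skin 3 of the 9 rose and 1 fell, beside 29% and 27.1% of all genes. This list summed to 16.8 to 24.7 FPKM in control, 12.8 to 23.5 FPKM in IMQ + NS and 6.07 to 13.6 FPKM in IMQ + BZLF samples.

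Genes with the profile most like that of the 4 genes with a mean of at least 1 FPKM were sought over the 12 samples by Pearson's r of log2(FPKM + 0.1), among genes with a mean of at least 1 FPKM. They were Ablim3 (r = 0.97) and Ttc30b (r = 0.97) for Cd207, Id4 (r = 0.99) and Macc1 (r = 0.99) for Epcam, Fgd3 (r = 0.97) and Slc15a3 (r = 0.97) for Itgax, and Vwf (r = 0.97) and Atp2a3 (r = 0.96) for Cd86. The 12 samples share 3 groups, so these values describe a common pattern over the groups. Vwf is a gene of endothelium and Slc15a3 a transporter of lysosomes.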

How the data were processed

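RNA-seq of 12 skin samples was analysed. The authors deposited 1 FPKM value per gene and sample for 18505 genes, neither logged nor pooled. The methods of the study name Bowtie2, eXpress and a stranded kit with ribosomal RNA removal. The processing notes and labels name fastp, HISAT2, HTSeq, R 3.2.0, mm10 and another kit, so which of these made the values is open. Counts could not be recovered (41.4% of 10210 low values lay within 0.05 of a whole multiple), so no count model was used. Genes averaging 0.1 FPKM or more over all samples (15288) were fitted in R 4.3.3 with limma 3.58.1 on log2(FPKM + 0.1), with a variance trend, for each pair of groups. Exact permutation tests over 70 assignments used SciPy 1.17.1. The code was tested on simulated data. Alternatives changed the pseudocount (0.01 or 1), the filter, scaling, variance model, samples, threshold and replicate block, and those for other lists were chosen after seeing the data. The 8 genes, the lists and the tests were chosen with earlier results of these data known. Named genes of other lists were DEGs, at most 6 per list and comparison by size, and genes named for their role. Lists of other cells are given mainly as counts. Clec4a2, Naaa, Itgae, Ly75, Csf1r, Tgfbr2, Tgfb1, Csf2ra, Csf2rb, Adgre1, Svs5 and Ctrb1 were added after their values were seen. So were Cx3cr1, Maf, Cd163, Mrc1, Cd68, C1qa, C1qb and C1qc. Comparisons by the authors were not used. Promoter windows came from RefSeq (GRCm38.p6) and annotation from GENCODE M21. The result of 1 gene is not reported here.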

Additional observations from a re-analysis of the deposited data

Results flagged for a closer look

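Of 27 groups of 4 samples checked (the 8 genes and the Cd207 minus Epcam difference in 3 groups), 1 had a sample far from the others: Cd207 in IMQ + BZLF replicate 1, at 4.71 FPKM, beside 8.21 to 8.62 FPKM in the other 3. The gap to the nearest sample was 0.895 of the range of the group, above the Dixon limit for 4 samples at the 95% level. Chance flags about 1 in 20 groups. The same sample was the lowest of its group for 6 of the 8 genes, and without it Cd207 still fell against control, by 0.81 on the log2 scale (limma adjusted p = 0.0104).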

How the results depend on the processing

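For the fold changes of the 8 genes under alternative settings, 420 values kept their direction and their side of the threshold, 14 lost their call, 8 gained one and 2 turned. The sign of Cd207 in IMQ + BZLF against IMQ + NS turned when replicate 1 of the IMQ + NS group (0.06) or of the IMQ + BZLF group (0.11) was left out, over a range of -0.23 to 0.11, and that of Cd207 minus Epcam turned with quantile normalization (0.0086) and without single samples, over a range of -0.18 to 0.17. The cause was not tested. With a pseudocount of 1, DEGs among the 8 genes numbered 1 in IMQ + NS against control, 0 in IMQ + BZLF against IMQ + NS and 0 in IMQ + BZLF against control. With a mean FPKM of at least 1, which leaves 4 of the 8 genes, 4 passed and 1 was a DEG in IMQ + NS against control. With an unadjusted p below 0.05, 3 passed and 2 were DEGs in IMQ + BZLF against IMQ + NS. Leaving out 1 sample gave 5 to 7 passing and 1 to 4 DEGs in IMQ + NS against control (1 without control replicate 1), 0 to 1 of each in IMQ + BZLF against IMQ + NS (0 without IMQ + BZLF replicate 2), and 4 to 7 passing and 1 to 4 DEGs in IMQ + BZLF against control (1 without control replicate 1, control replicate 3 or IMQ + BZLF replicate 1). The Cd207 minus Epcam difference ranged from -2.33 to -1.85 in IMQ + NS and from -2.35 to -1.84 in IMQ + BZLF against control, where 4 against 3 samples cannot go below an exact permutation p of 0.0571. Samples with the same number deviated together only in part: 6 of 12 same-numbered pairs, those of replicates 3 and 4, had r above 0.1, over a range of -0.15 to 0.26, and 7 of 12 correlated best with their own number. Since the labels do not say what a number marks and not every pair correlated, the fits had no replicate block. With the number as a replicate block 6, 1 and 5 genes passed in the 3 comparisons, and the rise of Itgax in IMQ + NS skin was lost (0.56, limma adjusted p = 0.0659). Rescaling to equal sums moved the median of all genes to -0.07 in IMQ + NS and -0.12 in IMQ + BZLF against control. Depth is not known, which limits statements on Flt3, Xcr1 and Clec9a, all below 1 FPKM.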
